A study of Arabidopsis thaliana with 16 samples.

Results

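Transcript levels of 9 heat shock genes were examined in Arabidopsis (Arabidopsis thaliana) seedlings that carry or lack the receptor kinase FERONIA (FER), with and without arabidopside A. The 9 genes were chosen by their gene identifiers out of the 32833 genes in the count table, with earlier results of these data known. They are the heat shock transcription factor gene HSFA2 (AT2G26150), the chaperone genes HSP101 (AT1G74310), HSP90-1 (AT5G52640) and HSP70-4 (AT3G12580), and the small heat shock protein genes HSP17.6II (AT5G12020), HSP17.4 (AT3G46230), HSP18.2 (AT5G59720), HSP22 (AT4G10250) and HSP23.6 (AT4G25200). All 16 libraries came from 10-day-old whole seedlings that had been moved to 1/2MS liquid medium 2 h before arabidopside A was added to the treated ones. There were 4 libraries each of fer seedlings given arabidopside A (spelled Aradopside in the sample titles; 12.5 µM for 2 h), fer control seedlings, WT seedlings given arabidopside A and WT control seedlings. WT is Col-0, and fer is fer-4, 1 T-DNA insertion allele in that background. What the control seedlings received in place of arabidopside A, and how many seedlings went into a library, are not given in the sources used here. Nothing in the labels says that replicates came from separate cultures, so the p-values measure the spread between these libraries, which may be technical.

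Heat shock factors are transcription factors that bind heat shock elements, runs of inverted GAA units, and switch on chaperone genes when proteins unfold. In Arabidopsis the class A1 factors (HSFA1A, HSFA1B, HSFA1D and HSFA1E) start the response, and HSFA2, itself a target of theirs, prolongs it. HSP90 and HSP70 chaperones fold and hold client proteins, HSP101 pulls proteins out of aggregates, and the small heat shock proteins bind unfolding proteins before they aggregate. Arabidopside A is a chloroplast galactolipid that carries esterified oxophytodienoic acid (OPDA), the precursor of jasmonic acid, and free OPDA and related reactive lipids are known to raise transcripts of heat shock genes in this plant. FER is a plasma membrane receptor kinase that monitors the cell wall and binds RALF peptides.

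The DNA around the start of each gene was read from RefSeq's TAIR10.1 genome and annotation to show where heat shock elements stand. All 9 genes were found there. HSFA2 lies at chr2:11135624-11137792 on the plus strand, HSP101 at chr1:27936508-27940369 on the minus strand, HSP90-1 at chr5:21352557-21355147 on the plus strand and HSP70-4 at chr3:3991117-3993886 on the minus strand. Of the small heat shock protein genes, HSP17.6II lies at chr5:3882231-3883111 (minus), HSP17.4 at chr3:16984118-16984867 (minus), HSP18.2 at chr5:24062323-24063300 (plus), HSP22 at chr4:6370338-6371372 (plus) and HSP23.6 at chr4:12916926-12918110 (plus). A 2-unit core (GAANNTTC or TTCNNGAA, each its own reverse complement, so that both strands are searched at once) and a 3-unit run (GAANNTTC followed by NNGAA, or TTCNNGAA followed by NNTTC, so that 2 cores overlap in it) were looked for in the 250 bases before and 50 bases after the annotated start. At least 1 core was present in 5 of the 9 windows (55.6%), against 19.3% of the 27443 windows of all protein-coding nuclear genes, and a 3-unit run in 3 of 9 (33.3%), against 0.481%. Of the windows of 67 other heat response genes, 35.8% held a core and 11.9% a 3-unit run. The 3-unit runs were in the windows of HSFA2, HSP70-4 and HSP17.4, and HSP101 and HSP23.6 had a single core after the start. Neither motif was found in the windows of HSP90-1, HSP17.6II, HSP18.2 and HSP22, and the annotated model of HSP90-1 begins at its coding start, so that its window is placed on the start codon and not on a transcription start. The annotated starts of HSP18.2, HSP17.6II and HSP22 lie 309, 235 and 199 bases before their coding starts. The bases more than 50 after those starts were not searched, so elements there would have been missed. The stretches that hold the matches are printed 5′ to 3′ on the strand of the gene, with the motif letters in capitals and 8 bases on either side. They run from chr2:11135528-11135645 for HSFA2, chr3:3993846-3993874 for HSP70-4, chr3:16984865-16984974 for HSP17.4, chr1:27940325-27940348 for HSP101 and chr4:12916931-12916954 for HSP23.6.
HSFA2: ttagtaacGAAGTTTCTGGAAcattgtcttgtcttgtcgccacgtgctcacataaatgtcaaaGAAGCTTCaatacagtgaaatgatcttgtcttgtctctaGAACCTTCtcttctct
HSP70-4: ttactcgtGAACGTTCTCGAAagctcttt
HSP17.4: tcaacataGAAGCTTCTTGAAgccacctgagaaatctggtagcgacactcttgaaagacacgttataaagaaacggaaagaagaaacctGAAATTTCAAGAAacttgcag
HSP101: aaataagcGAAAATTCcacgtgac
HSP23.6: cttctccaGAACATTCactcactg

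**Figure D1:**
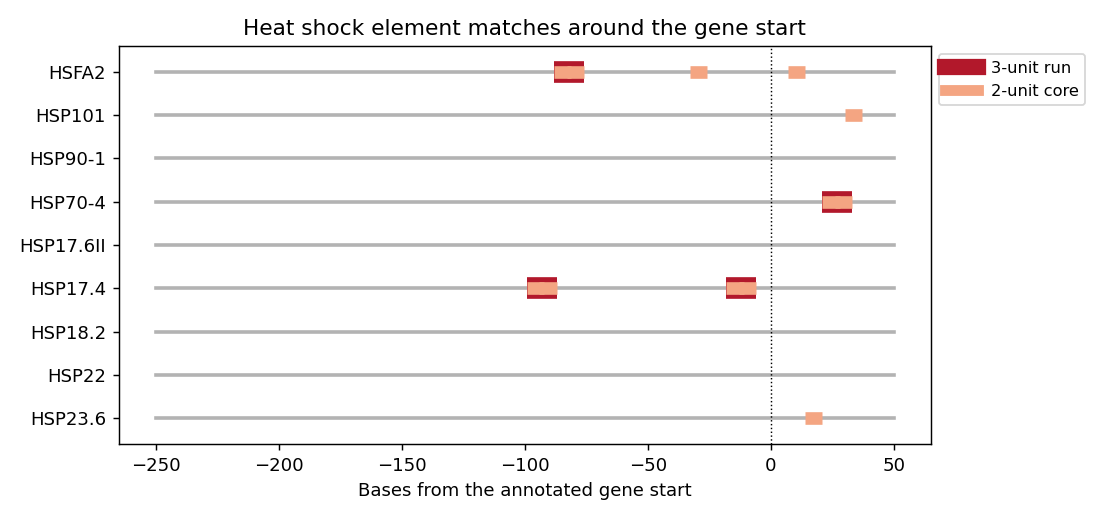
Matches to the heat shock element motifs in the window from 250 bases before to 50 bases after the annotated start of each gene, in bases from that start (dotted line). Dark bars are 3-unit runs, light bars 2-unit cores, and the windows of HSP90-1, HSP17.6II, HSP18.2 and HSP22 hold neither.

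In the windows of HSFA2 and HSP17.4 a 3-unit run stood before the start, at 88 bases for HSFA2 and at 99 and 18 bases for HSP17.4, as the map of matches shows. The run of HSP70-4 lay after the start, in the transcribed leader. A match describes the letters in the window and was not tested for binding.

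The libraries were made with QuantSeq, a 3′-end method that sequences 1 fragment per transcript, and held 2843653 to 26358335 counts (2843653 to 6860427 without the deepest, fer arabidopside replicate 2). FER (AT3G51550) had 0 to 14 counts in the 8 fer libraries, against 356 to 793 in the 8 WT libraries, as the genotype labels call for. Along the first principal component, which held 61.3% of the variance, replicates 3 and 4 of fer control (104.2 and 79.72) lay apart from replicates 1 and 2 (12.8 and 15.42). The fer arabidopside libraries were spread evenly in the order of their numbers (19.55, 45.14, 77.48 and 110.8), with no such gap. The calls among the 9 genes were also made without replicates 3 and 4 of both fer groups. Of 5 shoot marker genes (light-harvesting, photosystem and Rubisco genes), 4 were called lower in fer than in WT both without and with arabidopside A, and their summed level was 4392 to 9282 CPM (counts scaled to the TMM-adjusted library size) in fer control, against 12313 to 15075 CPM in WT control. Of 6 root marker genes, 1 was called higher and 1 lower in fer control. In whole seedlings fewer cells of a type and less RNA per cell cannot be told apart, and the part of organ make-up in the differences between fer and WT was not tested. None of the 50-base runs in the last 400 bases of the 9 transcripts occurs elsewhere in the TAIR10.1 genome. HSP101 overlaps AT1G74300 by 101 bp on the opposite strand and HSP17.4 overlaps 2 genes on the opposite strand by up to 453 bp. Whether strand was used in counting is not given in the sources used here, so reads in those stretches could have been set aside or shared.

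**Figure D2:**
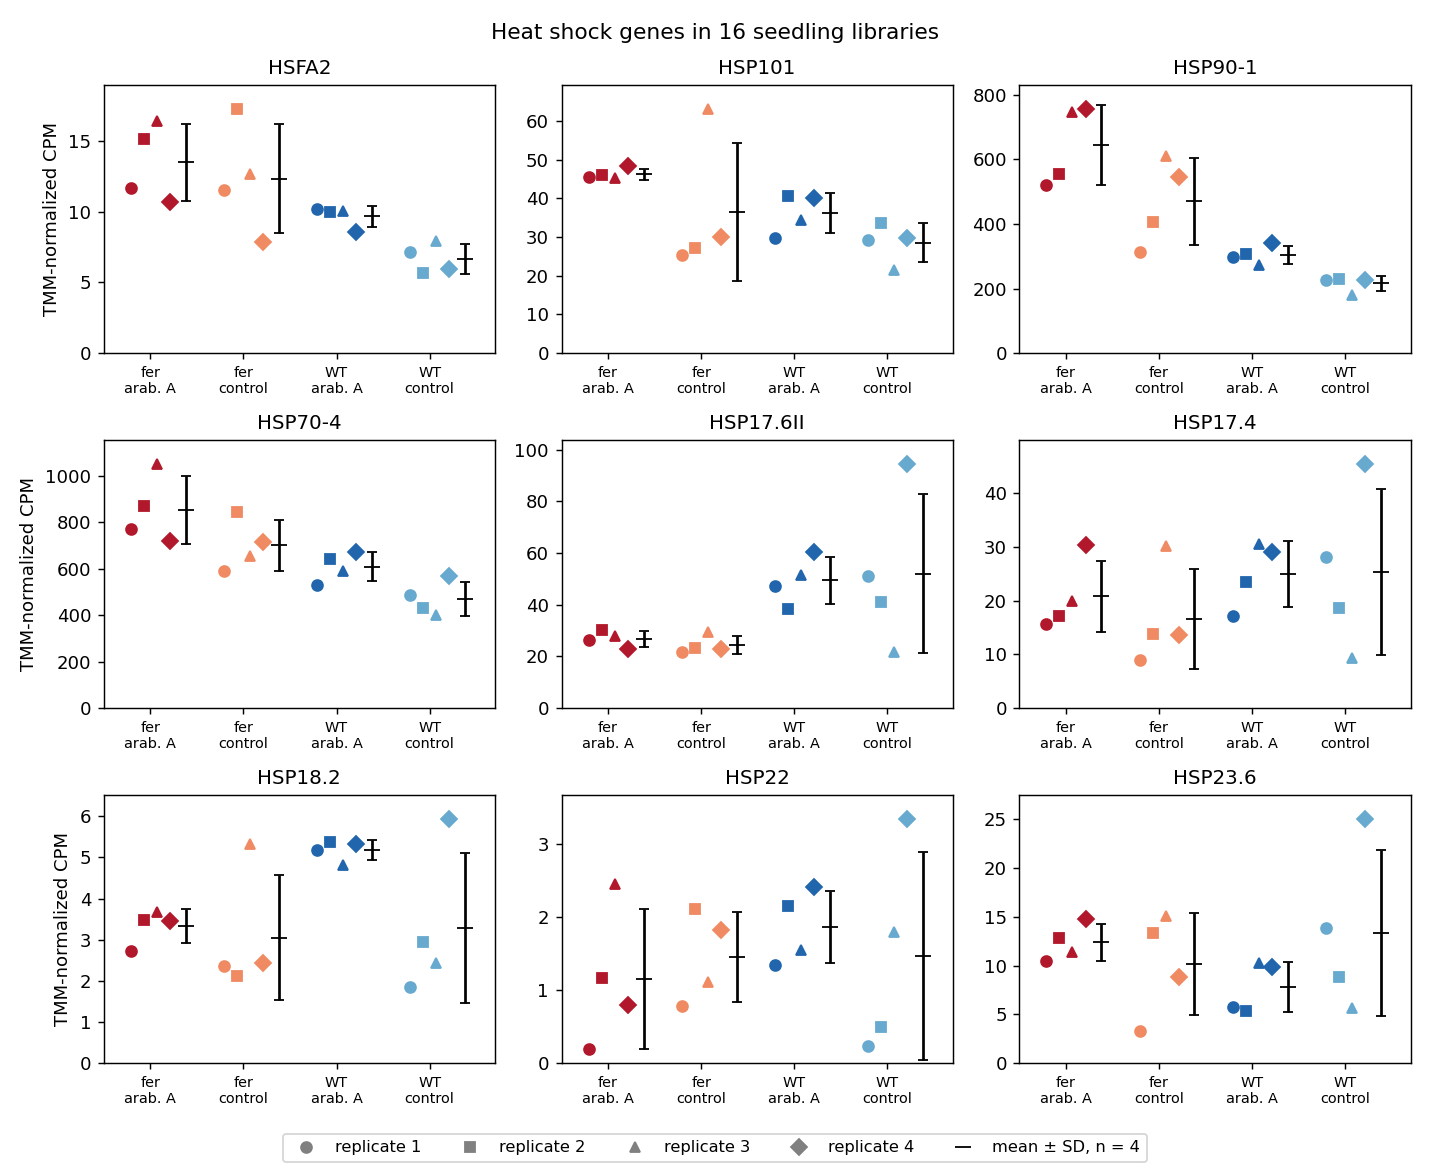
TMM-normalized CPM of the 9 heat shock genes in 16 libraries, 1 panel per gene, with fer arabidopside, fer control, WT arabidopside and WT control from left to right. Symbols stand for the replicate numbers, which order nothing, and black bars for mean ± SD (n = 4); HSP90-1 and HSP70-4 lie higher in both fer groups than in the matching WT groups, and WT control replicate 4 is the highest of its group for all 5 small heat shock protein genes.

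The first comparison set fer control against WT control, to ask how the loss of FER changes these transcripts in seedlings not given arabidopside A. HSP90-1, HSP70-4 and HSFA2 were higher in fer, by 2.16-fold, 1.48-fold and 1.81-fold. HSP101 and the small heat shock protein genes tested were not called, and all 4 small heat shock protein genes tested had log2 fold changes under 0. With edgeR's quasi-likelihood F test, calling genes with an adjusted p (Benjamini-Hochberg, all genes tested) below 0.05, 3 of the 8 genes tested were called higher and 0 lower (4 had an unadjusted p below 0.05), where 27.2% of the 17001 genes tested were called, 15.65% higher and 11.52% lower. The median log2 fold change of the 8 genes was 0.13, against -0.03 over all genes tested. It was -0.283 without fer control replicate 3, 0.363 without WT control replicate 4 and -0.35 without fer replicates 3 and 4. HSP22 had too few counts to be tested.

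HSP90-1, the heat-inducible member of the cytosolic HSP90 family, had 314, 407, 610 and 546 CPM in fer control, against 227, 231, 181 and 226 CPM in WT control (replicates 1 to 4, as in all such lists here). Every fer control library lay above every WT control library, with a log2 fold change of 1.11 (standard error 0.20, 95% interval 0.68 to 1.54, adjusted p = 0.00214 from edgeR). Replicates 3 and 4 of fer were the highest, and without replicates 3 and 4 of both fer groups the log2 fold change was 0.72 (adjusted p = 6.0e-05 from edgeR).

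HSP70-4, a heat-inducible cytosolic HSP70, had 591, 847, 654 and 718 CPM in fer control, against 486, 432, 400 and 568 CPM in WT control. The groups did not overlap, which held for 16.2% of all genes tested in this direction (13.7% in the other). edgeR gave a log2 fold change of 0.56 (standard error 0.15, 95% interval 0.24 to 0.89, adjusted p = 0.0164 from edgeR). The call was lost without WT control replicate 2 (adjusted p = 0.0573) or replicate 3 (0.0655), and with upper-quartile in place of TMM normalization (0.46, adjusted p = 0.0506).

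HSFA2 had 11.5, 17.2, 12.6 and 7.88 CPM in fer control, against 7.14, 5.64, 7.96 and 5.93 CPM in WT control, from 23 to 59 counts per library. The highest WT library stood just above the lowest fer library, so the groups overlapped. Its log2 fold change was 0.86 (standard error 0.25, 95% interval 0.31 to 1.40, adjusted p = 0.0247 from edgeR). It was not called without WT control replicate 2 (adjusted p = 0.0687) or replicate 4 (0.0709).

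HSP101, the disaggregating chaperone of the HSP100 family, had 25.4, 27.1, 63.0 and 30.0 CPM in fer control, against 29.3, 33.6, 21.4 and 29.9 CPM in WT control. A single fer library, replicate 3, held 2.29 times the mean of the other 3 and the rest lay within the WT range. Its log2 fold change of 0.35 (95% interval -0.29 to 1.00, adjusted p = 0.407 from edgeR) became -0.05 without that library.

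Among the small heat shock protein genes, HSP17.6II, which encodes a cytosolic class II protein, had 21.7, 23.2, 29.5 and 22.7 CPM in fer control, against 51.2, 40.9, 21.8 and 94.4 CPM in WT control. The WT libraries spread over 4.34-fold, the fer libraries over 1.36-fold, and WT control replicate 3 lay within the fer range. On the log2 scale the change was -1.11 (standard error 0.39, 95% interval -1.99 to -0.22) with an adjusted p of 0.0660 from edgeR. This gene passed the threshold with DESeq2 (adjusted p = 0.0164) and in a fit of all 16 libraries (0.0147). Leaving out WT control replicate 3 also took it past the threshold (-1.37, adjusted p = 0.00935). Dropping replicates 3 and 4 of both fer groups instead raised the adjusted p to 0.347 in edgeR, at a log2 fold change of -1.23. Among the fits that left out 1 library the adjusted p reached 0.15, and the log2 fold change was -0.65 without WT control replicate 4.

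The cytosolic class I gene HSP17.4 had 9.0, 13.7, 30.2 and 13.6 CPM in fer control, against 28.1, 18.6, 9.26 and 45.4 CPM in WT control. HSP18.2, also of class I, had 2.35, 2.11, 5.32 and 2.43 CPM in fer control, against 1.84, 2.94, 2.44 and 5.93 CPM in WT control. In both genes the same libraries led, replicate 3 in fer control and replicate 4 in WT control, and the groups overlapped. Their log2 fold changes were -0.61 (95% interval -1.83 to 0.62) and -0.10 (-1.07 to 0.88), intervals that hold changes of more than 1 log2 unit in the lower direction. Without WT control replicate 4 they were -0.16 and 0.355, and HSP18.2 was also above 0 without fer control replicate 1 (0.0401) or replicate 2 (0.0513).

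HSP23.6, whose protein is imported into mitochondria, had 3.33, 13.4, 15.1 and 8.79 CPM in fer control, against 13.8, 8.83, 5.69 and 25.0 CPM in WT control. HSP22, which encodes the small heat shock protein of the endoplasmic reticulum, had 4 to 6 counts per library in fer control, against 1 to 18 in WT control. Both genes overlapped between the genotypes. HSP23.6 had a log2 fold change of -0.43 (95% interval -1.67 to 0.82, adjusted p = 0.610 from edgeR), or 0.0854 without WT control replicate 4. For HSP22 a two-sided exact permutation test of the log2 values gave p = 0.686, where the smallest p that 4 against 4 libraries allow is 0.0286.

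**Figure D3:**
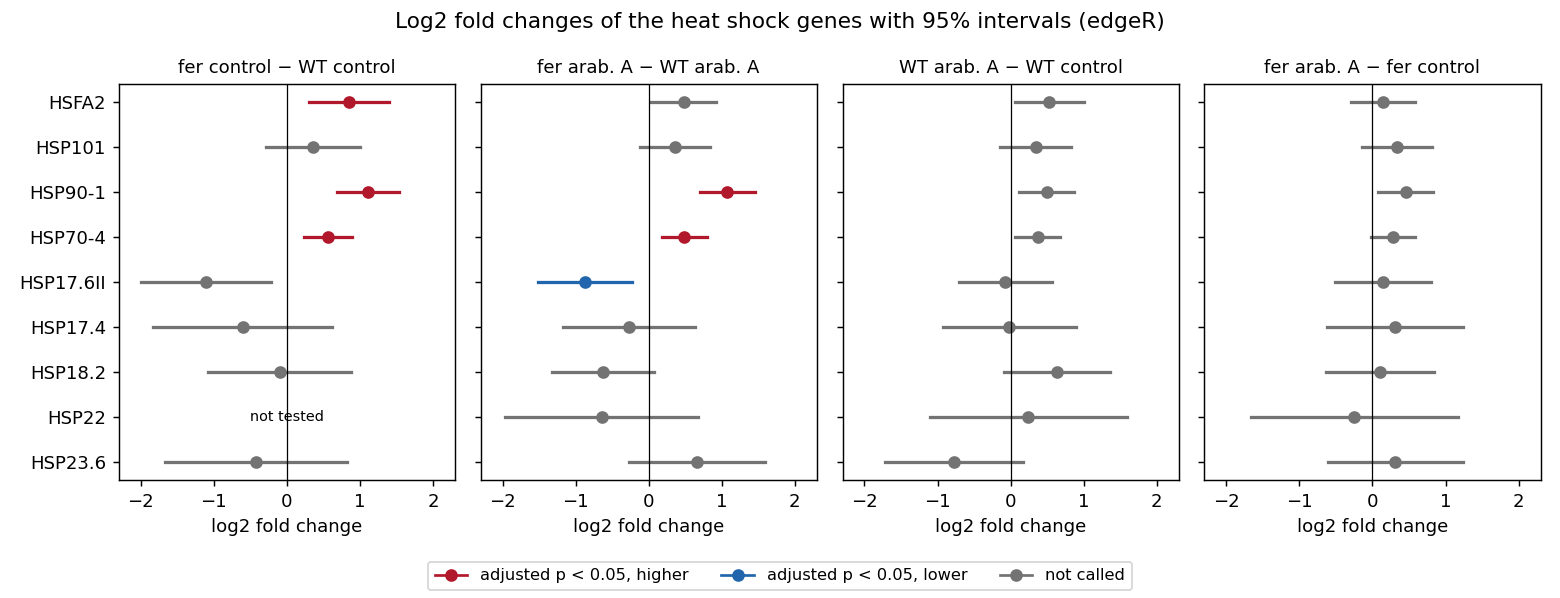
Log2 fold changes of the 9 genes (points) with 95% intervals (lines) from edgeR, for fer control against WT control, fer arabidopside against WT arabidopside, WT arabidopside against WT control and fer arabidopside against fer control. Red marks genes called higher, blue lower and grey not called; HSP90-1 was called in both genotype comparisons and HSP17.6II among the seedlings given arabidopside A.

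Arabidopside-treated fer seedlings were then set against treated WT seedlings, with no library in common with the groups of the first comparison. The 2 comparisons were still not independent. The fit took its spread from all 16 libraries, and same-numbered treated and control fer libraries deviated together. HSP90-1 and HSP70-4 were again higher in fer, by 2.11-fold and 1.40-fold, and HSP17.6II was lower, at 0.545 times the WT level. All 9 genes were tested here, 2 were called higher and 1 lower with edgeR, and 31.2% of the 18132 genes tested were called (17.2% higher, 14% lower). Libraries did not overlap for 7 of the 9 genes, 5 higher and 2 lower in fer, against 16.8% and 15.6% of all genes. The median log2 fold change of the 9 genes was 0.36, against -0.01 over all genes tested.

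HSP90-1 had 520, 553, 745 and 754 CPM in fer arabidopside, against 297, 308, 273 and 341 CPM in WT arabidopside (log2 fold change 1.08, 95% interval 0.70 to 1.46, adjusted p = 0.000468 from edgeR). HSP70-4 had 771, 870, 1051 and 721 CPM in fer arabidopside, against 529, 642, 593 and 673 CPM in WT arabidopside. In both genes the lowest fer library was above the highest WT library. For HSP70-4 the log2 fold change was 0.49 (95% interval 0.18 to 0.79, adjusted p = 0.0180 from edgeR). The call was lost with upper-quartile normalization (0.40, adjusted p = 0.0539), without WT arabidopside replicate 1 (adjusted p = 0.0604) and without fer arabidopside replicate 3 (0.0643).

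HSFA2 had 11.7, 15.2, 16.4 and 10.7 CPM in fer arabidopside, against 10.2, 9.95, 10.0 and 8.54 CPM in WT arabidopside. The lowest treated fer library stood narrowly above the highest treated WT library, and the log2 fold change of 0.48 (95% interval 0.04 to 0.93) was not called (adjusted p = 0.0911 from edgeR). HSP101 had 45.5, 46.0, 45.2 and 48.4 CPM in fer arabidopside, against 29.7, 40.6, 34.4 and 40.0 CPM in WT arabidopside. The 4 treated fer libraries were within 1.07-fold of each other and all above the WT libraries, with a log2 fold change of 0.36 (95% interval -0.12 to 0.84, adjusted p = 0.246 from edgeR).

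HSP17.6II had 26.2, 30.3, 27.8 and 23.0 CPM in fer arabidopside, against 47.4, 38.5, 51.6 and 60.3 CPM in WT arabidopside. The groups did not overlap (at most 30.3 CPM in fer, at least 38.5 CPM in WT), and no WT library fell into the fer range as WT control replicate 3 did. Its log2 fold change was -0.88 (standard error 0.30, 95% interval -1.52 to -0.23, adjusted p = 0.0376 from edgeR). The call sat close to the threshold, and was lost with no filter on low counts (adjusted p = 0.0660), without fer replicates 3 and 4 (0.298) and in 8 of the 16 fits that left out 1 library (up to 0.110).

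The other small heat shock protein genes were not called. HSP18.2 had 2.72, 3.47, 3.67 and 3.47 CPM in fer arabidopside, against 5.18, 5.38, 4.83 and 5.34 CPM in WT arabidopside, with no overlap (log2 fold change -0.62, 95% interval -1.32 to 0.07). HSP23.6 stood the other way, at 10.5, 12.8, 11.4 and 14.8 CPM in fer arabidopside, against 5.76, 5.38, 10.2 and 9.88 CPM in WT arabidopside, also without overlap (0.67, 95% interval -0.26 to 1.59). So among the treated libraries the mitochondrial gene lay on the other side of WT from HSP17.6II and HSP18.2, though neither HSP18.2 nor HSP23.6 passed the test. HSP17.4 had 15.74, 17.2, 19.9 and 30.4 CPM in fer arabidopside, against 17.1, 23.4, 30.5 and 29.1 CPM in WT arabidopside, and HSP22 1 to 31 counts per library against 7 to 9. Both overlapped.

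Most relatives of HSP90-1 and HSP70-4 were not called in fer control, as was true of most genes tested (27.2% called in either direction). Of the cytosolic HSP90 genes beside HSP90-1, which are expressed without heat, none was called, with log2 fold changes between fer control and WT control of -0.16 for HSP90-2, -0.09 for HSP90-3 and 0.13 for HSP90-4. Their 95% intervals lay between -0.45 and 0.53, below the interval of HSP90-1, though the difference between family members was not itself tested. Of the cytosolic HSP70 genes, HSP70-2 was higher in fer control (1.40, adjusted p = 0.00375 from edgeR), at 159, 161, 306 and 341 CPM against 96.1, 88.5, 78.9 and 101 CPM in WT control, and at 0.798 on the log2 scale without fer replicates 3 and 4, while HSC70-1 (-0.14), HSP70-3 (0.22) and HSP70-5 (-0.95) were not called. HSP70-5 spread widely, from 5.09 to 20.2 CPM in fer control, against 9.42 to 36.7 CPM in WT control.

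**Figure D4:**
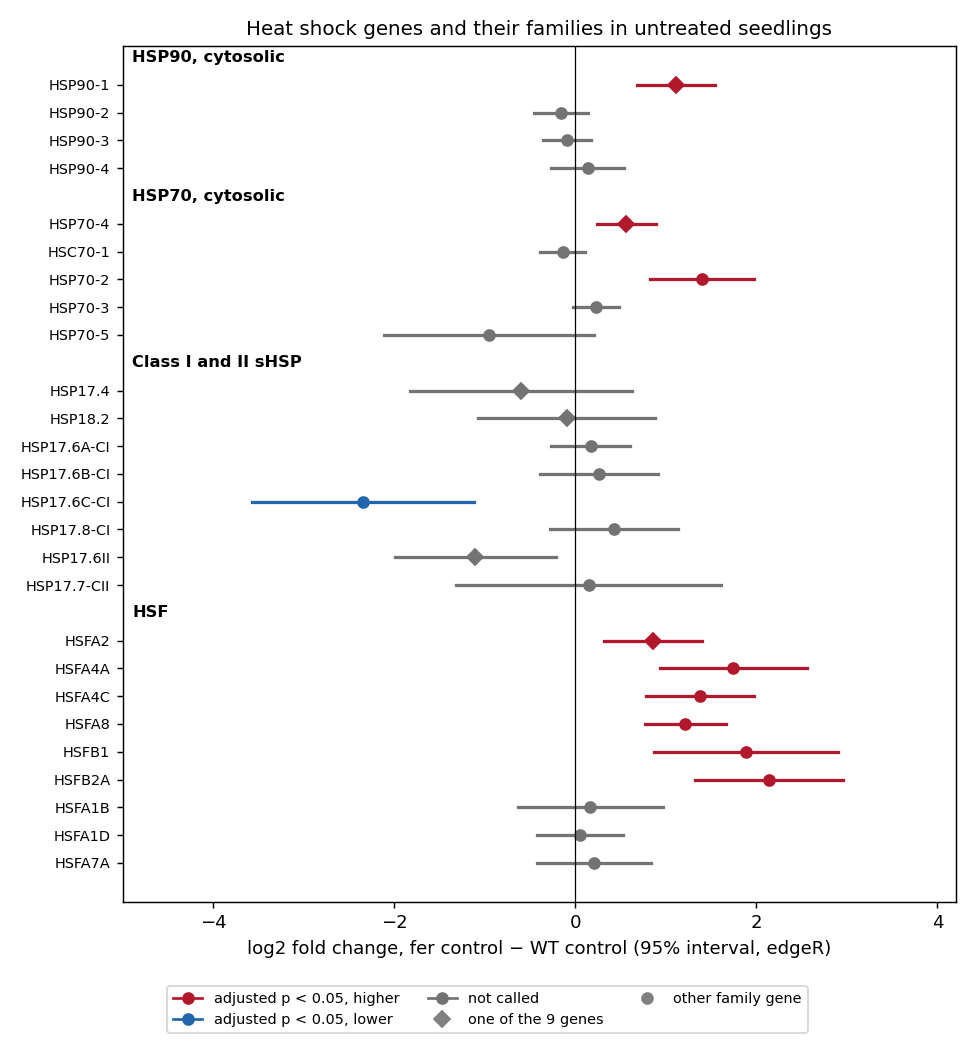
Log2 fold changes with 95% intervals (edgeR) between fer control and WT control for the HSP90, HSP70, class I and II small heat shock protein (sHSP) and heat shock factor (HSF) families. Diamonds are genes of the 9 and circles other members of each family; HSP90-1 stands at 1.11 while HSP90-2, HSP90-3 and HSP90-4 lie between -0.16 and 0.13.

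Heat shock factor genes other than HSFA2 were 5 of the 10 other heat response genes called higher in fer control. Of 20 such genes 14 were tested, 5 were called higher and 0 lower, where 15.65% of all genes were called higher and 11.52% lower. HSFB2A and HSFB1, class B factors that repress heat shock genes, had log2 fold changes of 2.14 (adjusted p = 0.00198 from edgeR) and 1.88 (0.0165). HSFA4A (1.74, adjusted p = 0.00770), HSFA4C (1.38, 0.00395) and HSFA8 (1.21, 0.00163), class A factors, were also higher. HSFA4A had 29.0, 37.3, 101 and 61.8 CPM in fer control, against 16.8, 17.2, 16.7 and 17.43 CPM in WT control, with the 4 WT libraries close together and fer replicates 3 and 4 highest. Without replicates 3 and 4 of both fer groups all 5 were still called, at 1.52 for HSFB2A, 0.815 for HSFB1, 0.925 for HSFA4A, 0.872 for HSFA4C and 0.907 for HSFA8. Of the class A1 factors, HSFA1B and HSFA1D were tested and not called, and HSFA1A and HSFA1E had too few counts for the test.

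Of 13 small heat shock protein genes beyond the 9, 10 were tested in fer control, 1 was higher and 2 were lower, where 15.65% and 11.52% of all genes were. HSP23.5, the mitochondrial relative of HSP23.6, was higher at 143, 191, 229 and 165 CPM in fer control, against 90.1, 81.4, 83.5 and 94.8 CPM in WT control (1.05, adjusted p = 0.000740 from edgeR). The class I gene HSP17.6C-CI was lower at 7.43, 13.0, 15.1 and 8.49 CPM in fer control, against 65.2, 37.5, 18.52 and 101 CPM in WT control (-2.35, adjusted p = 0.0146 from edgeR). Its WT libraries ran in the same order as those of HSP17.6II, with replicate 4 highest and replicate 3 lowest, and its call was lost without fer replicates 3 and 4 (-2.53, adjusted p = 0.180). HSP15.4 was lower as well (-0.90, adjusted p = 0.00432). HSP17.7-CII, the class II neighbour of HSP17.6II, was not called (0.15, 95% interval -1.32 to 1.61), and HSP21 of the chloroplast had too few counts for the test.

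Among the co-chaperones 2 of 12 were higher and 1 lower in fer control, near the shares over all genes (15.65% and 11.52%). SGT1A, a partner of HSP90 in immune receptor folding, had a log2 fold change of 0.91 (adjusted p = 0.00306 from edgeR) and the HSP40 gene J2 0.86 (0.00334), while HOP1, which links HSP70 to HSP90, had -0.46 (0.0107). Over all 67 genes of the lists beyond the 9, 56 were tested in fer control against WT control, with 10 called higher and 4 lower, also near those shares, and a median log2 fold change of 0.15. In seedlings given arabidopside A 58 were tested, with 13 higher and 6 lower in fer than in WT, where 17.2% and 14% of all genes were, and a median of 0.20. HSFB2A (2.02), HSFA4A (1.8), HSFB1 (1.5), HSP70-2 (1.145), HSP23.5 (0.86), SGT1A (0.76), HSFA8 (0.72) and J2 (0.64) were higher there, as was the coactivator gene MBF1C (0.93). HSP17.6C-CI (-1.33), the class III gene HSP17.4-CIII (-0.73) and HOP1 (-0.46) were lower. The call of HSFB1 was lost without fer arabidopside replicate 4 (adjusted p = 0.0616), and that of HSP17.6C-CI without WT arabidopside replicate 4 (0.0635), fer arabidopside replicate 3 (0.0612) or fer replicates 3 and 4 (0.160). Without fer replicates 3 and 4 HSFB1 was at 0.77, HSFA4A at 1.16 and HSP70-2 at 0.695.

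The third comparison, WT arabidopside against WT control, asked for the response to the lipid where FER is present. None of the 9 genes passed the test, although HSP90-1, HSP70-4 and HSFA2 had 1.41-fold, 1.29-fold and 1.45-fold the level of the controls. By edgeR 0 of the 9 genes tested were called, as by DESeq2 and limma-voom, with 3 at an unadjusted p below 0.05. Over all 18132 genes 1.97% were called, 1.84% higher and 0.132% lower. The median log2 fold change of the 9 genes was 0.34, against 0.004 over all genes tested.

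The 4 WT arabidopside libraries of HSP90-1 (273 to 341 CPM) lay above the 4 WT control libraries (181 to 231 CPM), and those of HSFA2 (8.54 to 10.2 CPM) above theirs (5.64 to 7.96 CPM). Such a gap in the higher direction was found in 7.01% of all genes. The log2 fold change of HSP90-1 was 0.50 (95% interval 0.12 to 0.87, adjusted p = 0.272 from edgeR), that of HSFA2 0.53 (0.06 to 1.01, adjusted p = 0.442) and that of HSP70-4 0.37 (0.06 to 0.68, adjusted p = 0.366). In a fit of the 8 WT libraries alone, HSP90-1 (0.49, adjusted p = 7.16e-05) and HSP70-4 (0.36, adjusted p = 0.0124) were called, in a fit that called 1206 genes in place of 357. With genotype and replicate number as the block HSP90-1 was also called (0.498, adjusted p = 0.00958 from edgeR), though same-numbered WT libraries did not deviate together. HSP101 had a log2 fold change of 0.34 (95% interval -0.15 to 0.83).

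The small heat shock protein genes gave no common direction in WT. HSP18.2 was at 4.83 to 5.38 CPM in WT arabidopside, against 1.84 to 5.93 CPM in WT control, with WT control replicate 4 above every treated library (log2 fold change 0.64, 95% interval -0.09 to 1.36). HSP23.6 had a log2 fold change of -0.77 (-1.71 to 0.17), HSP22 of 0.24 (-1.10 to 1.59), HSP17.6II of -0.07 (-0.71 to 0.56) and HSP17.4 of -0.02 (-0.93 to 0.89). The same library held the highest value of its group in each of these 5 genes. Without WT control replicate 4 the log2 fold changes were 1.1 for HSP18.2, -0.25 for HSP23.6, 0.99 for HSP22, 0.39 for HSP17.6II and 0.435 for HSP17.4, and none was called. Among the other heat response genes, 1 of 58 was called, the class III small heat shock protein gene HSP17.4-CIII, at 17.3, 19.6, 18.15 and 17.62 CPM in WT arabidopside, against 9.91, 8.58, 9.75 and 11.7 CPM in WT control (0.86, adjusted p = 0.0337 from edgeR). This call was lost without any one of 7 of the 8 WT libraries (adjusted p up to 0.128) and with upper-quartile (0.0809) or library-size (0.0749) normalization.

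The fourth comparison set fer arabidopside against fer control. By edgeR 0 of the 9 genes tested were called, with 1 at an unadjusted p below 0.05 and 0 by DESeq2 and limma-voom, while 0.381% of all genes were called (0.37% higher, 0.011% lower). No gene of the 9 had libraries that did not overlap, against 1.96% of all genes in the higher and 1.19% in the lower direction. The log2 fold change of HSP90-1 was 0.45 (95% interval 0.08 to 0.83, adjusted p = 0.50 from edgeR), of HSP101 0.34 (-0.14 to 0.82), of HSP70-4 0.28 (-0.02 to 0.59) and of HSFA2 0.14 (-0.30 to 0.59). Same-numbered fer libraries deviated together, though only 1 of the 4 treated ones was most like its own control, so the pairing is uncertain. Once genotype and replicate number together formed the block, HSP90-1 was called higher (0.48, adjusted p = 0.0316 from edgeR). Its level was above that of the control in 4 of the 4 fer pairs, while the groups as wholes overlapped. HSP70-4 stood above its control in 4 of 4 pairs too, by little in replicates 2 and 4, and was not called with the block (0.278, adjusted p = 0.414 from edgeR). Without replicates 3 and 4 of both fer groups HSP90-1 was also called (0.58, adjusted p = 0.0106 from edgeR), and HSP70-4 was not (0.198, adjusted p = 0.624).

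HSP101 rested on 1 library here too. Without fer control replicate 3, at 63.0 CPM, its log2 fold change was 0.75 (adjusted p = 0.0254 from edgeR), and without replicates 3 and 4 of both fer groups 0.81 (adjusted p = 0.0115). The small heat shock protein genes had log2 fold changes of -0.25 for HSP22, 0.10 for HSP18.2, 0.15 for HSP17.6II, 0.31 for HSP17.4 and 0.31 for HSP23.6, none called. Their median was 0.15, beside 0.28 for all 9 genes and -0.01 over all genes tested. HSP17.6II had 23.0 to 30.3 CPM in fer arabidopside, against 21.7 to 29.5 CPM in fer control, and its 8 fer libraries thus all stood between 21.7 and 30.3 CPM.

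Whether the response differed between fer and WT was tested as the difference of the responses in fer and in WT. By edgeR 0 of the 9 genes were called, with 0 at an unadjusted p below 0.05 and 0 by DESeq2 and limma-voom, against 0.11% of all genes. The differences on the log2 scale ran from -0.53 for HSP18.2 (95% interval -1.57 to 0.51) to 1.08 for HSP23.6 (-0.24 to 2.40). HSP90-1 had a difference of -0.04 with a 95% interval of -0.57 to 0.49, so that neither a smaller nor a larger response by up to about 0.5 log2 units could be told from none.

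**Figure D5:**
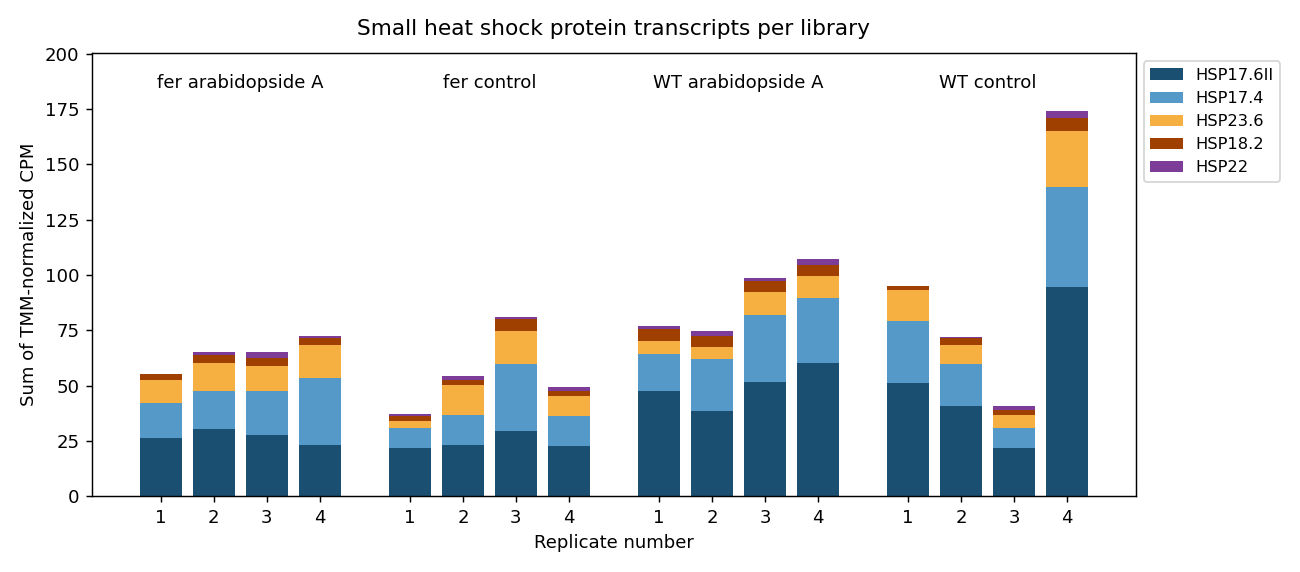
Summed TMM-normalized CPM of the 5 small heat shock protein genes in each library, stacked by gene, with fer arabidopside, fer control, WT arabidopside and WT control from left to right and replicate numbers on the axis. WT control spans 40.9 to 174 CPM, while the 8 fer libraries lie between 37.2 and 81.2 CPM.

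The small heat shock protein genes often had their highest value in the same library of a group. Their summed level was 55.4 to 72.5 CPM in fer arabidopside, 37.2 to 81.2 CPM in fer control, 76.7, 74.8, 98.7 and 107 CPM in WT arabidopside and 95.2, 71.8, 40.9 and 174 CPM in WT control, as the stacked plot shows. WT control replicate 4 was the highest of its group for 5 of the 5 genes and for 8 of the 11 other small heat shock protein genes tested, where that library was the highest for 25.7% of all genes. In fer control, replicate 3 was the highest for 4 of the 5 and for 6 of the 11 others (29.2% of all genes), and it also had the lowest summed shoot marker level, 4392 CPM. In each arabidopside group no library was the highest for more than 2 of the 5 genes. HSP70-4 was likewise highest in WT control replicate 4, at 568 CPM against 400 to 486 CPM in the other WT controls, while HSP90-1 and HSFA2 were at 226 and 5.93 CPM there, inside the range of the others. This pattern was noticed in the data and no test was made of it, and the part of the handling of single libraries in it was not tested.

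Across the 16 libraries the log2 levels of some of the 9 genes ran together. Pearson's r was 0.85 between HSP90-1 and HSP70-4, 0.78 between HSFA2 and HSP70-4 and 0.67 between HSFA2 and HSP90-1, and 0.73 between HSP17.6II and HSP17.4 and 0.71 between HSP17.4 and HSP23.6. HSP17.6II and HSFA2 had an r of -0.54. These values describe 16 libraries in 4 groups, which share genotype, treatment and normalization, and carry no p-value. Outside the 9, the genes whose log2 levels were most like the mean profile of the 9 over the 16 libraries, among 14252 genes with a mean of at least 5 CPM, were HOP3 (AT4G12400, r = 0.88), the HSP70–HSP90 organizing protein that responds to heat, HSP17.7-CII (AT5G12030, 0.86), the class I small heat shock protein gene AT1G07400 (0.85), SKP1 (AT1G75950, 0.83), a subunit of SCF ubiquitin ligases, and AT2G34140 (0.80). HOP3 had 46.8 to 78.3 CPM in fer control, against 46.5 to 74.7 CPM in WT control, and was not called between them.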

How the data were processed

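Per the labels and the study's methods, 3′-end RNA libraries were made with QuantSeq, each run more than once, and 50-base reads were aligned to TAIR10 with STAR and counted per gene with htseq-count (HTSeq, intersection-nonempty). SAMtools is named too. Versions, the annotation release and the strand option are not given in the sources used here. The authors deposited raw counts, used as such. They were normalized by TMM, filtered with filterByExpr and tested with the robust quasi-likelihood F test of edgeR 4.0.16 (R 4.3.3), and p-values were adjusted after Benjamini and Hochberg over every gene tested, with calls below 0.05. The untreated genotypes were compared in their 8 libraries, and all else in a fit of 16 libraries with 1 coefficient per group. CPM values are TMM-scaled over the 16 libraries. Low-count genes were tested by exact permutation of log2(CPM + 0.5).

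Libraries of fer arabidopside and fer control with the same number deviated together (r of the deviations 0.19 to 0.61 in the 4 pairs, mean -0.13 for other pairs). Only 1 of the 4 treated fer libraries had its highest r with the control of its own number. The labels do not state a pairing, so it is uncertain, and the blocked value is given where it changes a call. The other groups did not pair. In each of the 24 pairs of libraries of 1 group the counts differed by more than sampling noise (chi-square per gene at least 2.61, where noise alone gives about 1), so none was counted as a duplicate. Genes named are the 9, FER, up to 12 called genes of the other heat lists per comparison by smallest adjusted p, their closest relatives and the 5 genes most like the 9. The 9 genes and the lists were chosen with earlier results of these data known. Alternatives were other normalizations and filters, DESeq2 1.42.0, limma-voom (limma 3.58.1), replicate blocks, other sets of libraries and each library left out. The edgeR, DESeq2 and limma-voom fits were tested on simulated counts. Gene models came from TAIR10.1, in which 32548 identifiers matched.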

Additional observations from a re-analysis of the deposited data

Results flagged for a closer look

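In 4 of the 36 groups of 4 values examined for the 9 genes, 1 library stood apart from the other 3 by a gap that made up most of the range, and chance sets apart about 1 group in 20. HSP101 and HSP18.2 did so in the same library, fer control replicate 3, at 63.0 and 5.32 CPM. HSFA2 was low in WT arabidopside replicate 4, at 8.54 CPM, and HSP90-1 was low in WT control replicate 3, at 181 CPM. Of the library totals, fer arabidopside replicate 2 stood apart with 26358335 counts.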

How the results depend on the processing

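The 72 single-gene results were recomputed under 1643 alternatives, of which 1563 left direction and call as they were, 32 lost a call, 12 gained one and 36 turned a direction. Each turned direction belonged to a gene not called in the main comparison, and the causes were not tested. The numbers of the 9 genes called were 3 in fer control against WT control (1 to 3 with a library left out), 0 in WT arabidopside against WT control (1, HSP90-1, with the genotype and replicate block, 2 with only the 2 groups compared), 0 in fer arabidopside against fer control (1 with that block, 2 without fer replicates 3 and 4, 0 to 1 with a library left out) and 3 in fer arabidopside against WT arabidopside (1 to 3 with a library left out; 1 without WT arabidopside replicate 1 or fer arabidopside replicate 3). The setting without fer replicates 3 and 4 was chosen after seeing the data. The blocks changed no other call among the 9 genes. The median log2 fold change of the members tested in fer control against WT control was -0.35 without fer replicates 3 and 4 and ran from -0.283 (without fer control replicate 3) to 0.363 (without WT control replicate 4). Upper-quartile normalization moved the median of all genes there to -0.133.

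Without fer replicates 3 and 4, HSP101 was at -0.129, HSP90-3 at 0.0354 and HSP17.7-CII at -0.952 in fer control against WT control, HSFA2 at -0.0294 in fer arabidopside against fer control, and the difference of responses of HSP90-1 at 0.0947. In WT arabidopside against WT control, HSP17.6II was at 0.111 with limma-voom and 0.0777 with the genotype and replicate block, and HSP17.4 at 0.188 with limma-voom, 0.000489 with the replicate block and 0.126 with the genotype and replicate block. With a library left out, fer control against WT control ran from -0.0462 to 0.503 for HSP101, -0.52 to 0.355 for HSP18.2, -0.722 to 0.0854 for HSP23.6, -0.124 to 0.00191 for HSP90-3 and -0.641 to 0.613 for HSP17.7-CII. WT arabidopside against WT control ran from -0.334 to 0.389 for HSP17.6II, -0.304 to 0.435 for HSP17.4 and -0.084 to 0.988 for HSP22. Values of fer arabidopside against fer control ran from -0.0113 to 0.312 for HSFA2, -0.0465 to 0.534 for HSP18.2, -0.73 to 0.0152 for HSP22 and -0.0185 to 0.613 for HSP23.6, and the difference of responses of HSP90-1 from -0.2 to 0.115.

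Counts over all genes differed by more than 1.5 times in the responses. In WT arabidopside against WT control, 357 genes were called, 536 with DESeq2, 584 with the genotype and replicate block, 1206 with only the 2 groups compared, and from 210 (without WT control replicate 3) up to 437 with 1 library left out. In fer arabidopside against fer control 69 were called, 45 with library size only, 184 with DESeq2, 187 with the genotype and replicate block, 594 without fer replicates 3 and 4, 0 with only the 2 groups compared, and from 10 up to 179 with 1 library left out. The difference of responses had 20, 50 with DESeq2, 53 with the genotype and replicate block, 73 without fer replicates 3 and 4, and from 13 (without WT control replicate 3) up to 22 with 1 library left out. Depth limited HSP22, at 1 to 31 counts per library, and HSP18.2, at 6 to 92.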
